A study of Rattus norvegicus with 105 samples.

Results

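Nitromethane and nitroethane, the methyl and ethyl members of the nitroalkane series, were compared directly at 10 mM in primary rat hepatocytes, with 3 libraries for each compound. These 6 libraries, of 105 in the series, were taken by the compound and concentration in their names. The study exposed hepatocytes of female Sprague-Dawley rats, all from 1 commercial cell lot, for 24 hours to nitromethane, nitroethane or 1-nitropropane at 8 concentrations, beside medium, DMSO and receptor agonist wells. The cells grew on collagen in 96-well plates with serum and insulin, and RNA was read by TempO-Seq, in which pairs of detector oligos ligate on a transcript and are counted. No age of the animals was given in the labels used here. Replicates are wells of that lot, so each p-value is set by well-to-well spread and says nothing of variation among animals.

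Nitroalkanes are weak acids at the carbon next to the nitro group and exist in part as their nitronate tautomer. In liver they can be oxidised to nitrite and a carbonyl compound, which is formaldehyde for nitromethane and acetaldehyde for nitroethane. The hepatocyte is the main site of such metabolism and carries the cytochrome P450, aldehyde dehydrogenase and catalase enzymes involved.

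Both compounds lay in plate row H, nitromethane in columns 4 to 6 and nitroethane in columns 7 to 9, so that compound and column cannot be told apart. Medium wells lay in row A and DMSO wells in row B, in columns 10 to 12. The titles give the unit as µM and the treatment protocol as mM; mM is used here. Whether DMSO was present in the nitroalkane wells is not stated, and title and protocol differ in the DMSO percentage. Both controls are therefore used. For some genes and lists below, values of a single control or of neither are given. The panel is labelled as a human one, while the probe names in the table are rat gene symbols.

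The 6 libraries held 7510284 to 9015406 counts over 22253 probes. One library of each compound stood apart from the others. Nitroethane replicate 2 had counts for 21627 probes, against 13477 to 14398 in the other 5 libraries. Of 6352 probes at 0 in those 5 libraries, 5807 had a count in nitroethane replicate 2, at a median of 1.60 CPM, the count scaled to the total of its library. Nitromethane replicate 3 correlated with replicates 1 and 2 at 0.967 and 0.968 (Pearson, log2 CPM, across probes), while replicates 1 and 2 reached 0.996. It lay more than 1 log2 unit from the mean of those replicates at 2901 of 11551 probes. Every result below is given on all 6 libraries, with the value from the 4 libraries without nitromethane replicate 3 and nitroethane replicate 2 beside the leading ones. The libraries left out were picked by their own counts. Leaving them out lessens the spread within groups, so calls and p-values on the 4 libraries can overstate the evidence.

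Cell type markers were checked first. The summed level of 31 hepatocyte genes was 18620 to 20140 CPM with nitromethane and 18440 to 23720 CPM with nitroethane. It was 15760 to 20800 CPM in medium and 35470 to 39780 CPM in DMSO. The controls themselves thus differed in these genes, and comparisons with DMSO below are to be read with this. Endothelial, lymphocyte and erythroid markers were at or near 0, with sums of at most 1.22 CPM, except in nitroethane replicate 2, where they summed to 18.8, 17.3 and 18.8 CPM. Among 12 Kupffer cell probes, Cd163, Marco, Vsig4 and Clec4f had at most 3 counts in each nitromethane library, and the sums were 3.78 to 4.88 CPM with nitromethane and 1.89, 2.60 and, in replicate 2, 29.8 CPM with nitroethane. The 12 stellate cell probes summed to 337 to 605 CPM with nitromethane and 242 to 317 CPM with nitroethane, and Des was at most 3 counts in all 6 libraries. Of these sums in the nitromethane libraries, 334 to 601 CPM came from Reln alone. In bulk wells, fewer cells of a type and less RNA per cell cannot be told apart.

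Several of the genes that differed most encode chaperones of the endoplasmic reticulum (ER), and promoters of 3 of them are shown because they carry the ER stress response element. Hspa5 encodes BiP, the main ER lumen chaperone; Hsp90b1 encodes GRP94; Creld2 encodes an ER-resident factor. The promoter of Acta1, skeletal alpha-actin, is shown as the example from the genes that went the other way. Each is the 250 bases before the start site in RefSeq (build GRCr8), read 5′ to 3′ on the gene's strand. They lie at chr3:38452766-38453015 (plus strand, Hspa5), chr7:23012294-23012543 (minus strand, Hsp90b1), chr7:121789134-121789383 (plus strand, Creld2) and chr19:68784195-68784444 (minus strand, Acta1). Capitals mark the element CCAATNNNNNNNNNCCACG on either strand in the first 3 and the CArG box, the site of serum response factor (SRF), in Acta1.
Hspa5: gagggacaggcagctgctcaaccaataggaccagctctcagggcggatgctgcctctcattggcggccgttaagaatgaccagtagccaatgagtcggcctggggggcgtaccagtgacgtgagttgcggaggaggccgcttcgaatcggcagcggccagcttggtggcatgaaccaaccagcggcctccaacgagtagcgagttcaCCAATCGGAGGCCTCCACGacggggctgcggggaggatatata
Hsp90b1: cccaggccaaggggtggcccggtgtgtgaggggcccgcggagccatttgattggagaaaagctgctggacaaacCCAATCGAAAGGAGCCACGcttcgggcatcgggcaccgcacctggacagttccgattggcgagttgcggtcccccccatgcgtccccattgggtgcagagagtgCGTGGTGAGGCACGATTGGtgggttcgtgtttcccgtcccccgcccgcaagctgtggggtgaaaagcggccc
Creld2: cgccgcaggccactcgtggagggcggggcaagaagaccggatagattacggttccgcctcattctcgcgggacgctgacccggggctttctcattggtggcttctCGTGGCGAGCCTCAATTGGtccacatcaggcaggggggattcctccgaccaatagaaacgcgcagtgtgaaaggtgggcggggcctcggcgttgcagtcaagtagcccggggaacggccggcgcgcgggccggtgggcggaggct
Acta1: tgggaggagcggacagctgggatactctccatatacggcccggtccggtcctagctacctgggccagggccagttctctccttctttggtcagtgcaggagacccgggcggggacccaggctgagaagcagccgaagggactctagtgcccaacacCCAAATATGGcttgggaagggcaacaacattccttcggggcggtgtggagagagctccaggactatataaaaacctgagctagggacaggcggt

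The ER stress element was found in 7 of 13 promoters of the ER chaperone list that matched the table (Calr, Canx, Creld2, Dnajc3, Hsp90b1, Hspa5 and Xbp1), and in 22 of 33469 promoters overall (0.0657%). Hsp90b1 held it at 2 positions. The CArG box, which reads alike on both strands, was found in 4 of 14 promoters of the actin and SRF list (Acta1, Fblim1, Fhl2 and Srf) and in 501 of 33469 overall (1.5%). A match is a description of these letters only. Canx and Xbp1 held the element and did not pass the test between the compounds on all 6 libraries.

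At 10 mM the compounds differed at 1352 of 11551 probes tested (11.7%; edgeR quasi-likelihood test, Benjamini-Hochberg adjusted p under 0.05). Of these, 720 probes (6.23%) were higher with nitromethane and 632 (5.47%) were higher with nitroethane. Among called genes with a mean of at least 10 CPM and groups that did not overlap, the largest differences were those of R3hdml, Tnc and Nes, higher with nitromethane, and of Cyp4b1, LOC103694875 and Bhlha15, higher with nitroethane. Without the libraries that stood apart, 4577 of 11455 probes (40%) passed, 2273 higher with nitromethane (19.8%) and 2304 higher with nitroethane (20.1%). None of the 1352 probes took the other direction in that fit. List counts below on all 6 libraries are to be read beside 6.23% and 5.47%, and those on the 4 libraries beside 19.8% and 20.1%. Calls rose on the 4 libraries over all probes, so a larger list count there is by itself no result about the list.

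The controls place these differences. Against medium, nitroethane changed 3037 of 11966 probes (25.4%), 1551 higher (13%) and 1486 lower (12.4%). Nitromethane against medium gave 0 probes by edgeR, although 1306 had an unadjusted p under 0.05, DESeq2 called 66, and 219 passed without the libraries that stood apart. Against DMSO, nitroethane changed 2440 probes (20.4%) and nitromethane 315 (2.63%). With nitroethane 10.2% were higher and 10.2% lower than in DMSO, and with nitromethane 1.33% and 1.3%. List counts against a control are to be read beside the share of that comparison and direction. Of the 1352 probes that differed between the compounds, nitroethane lay farther from medium than nitromethane at 1308 (96.7%) and farther from DMSO at 1070 (79.1%). Medium lay between the compounds at 896 of the 1352 probes (66.3%) and DMSO at 1097 (81.1%). These probes were chosen for differing between the compounds. The comparisons with the controls also share their control libraries and these treated libraries, so these shares are a description.

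**Figure D1:**
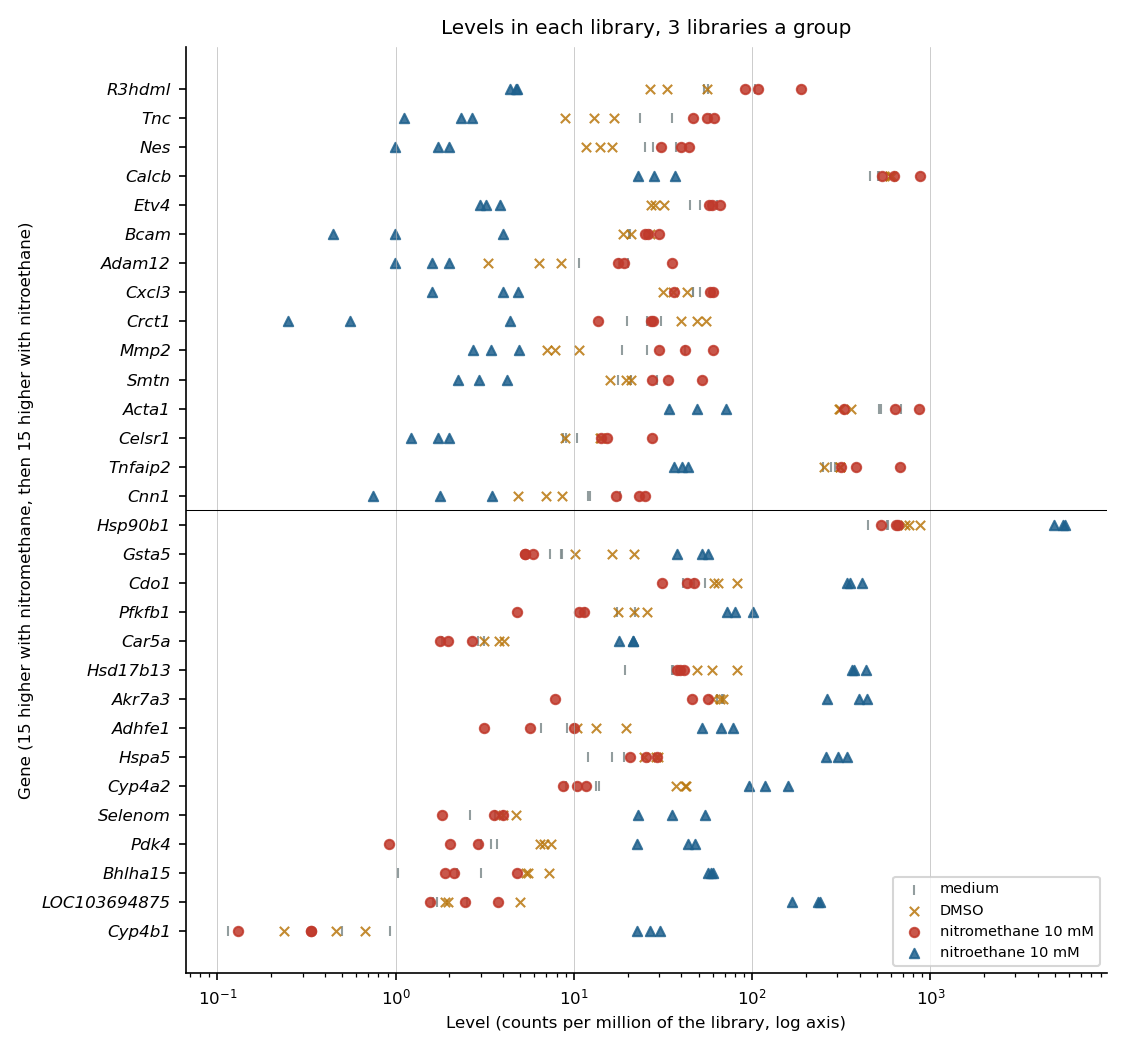
Levels (CPM, log axis) of the 15 genes with the largest difference in each direction, in each of 3 libraries of nitromethane (circles), nitroethane (triangles), medium (bars) and DMSO (crosses). Nitromethane circles and nitroethane triangles do not overlap for any of the 30 genes, which the choice of genes required; medium lies near the nitromethane circles.

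Tnc, the matrix glycoprotein tenascin C, stood at 46.7, 61.3 and 55.8 CPM with nitromethane, at 1.11, 2.66 and 2.33 CPM with nitroethane, and at 35.6, 23.4 and 58.2 CPM in medium. The nitroethane libraries were all below the medium and DMSO libraries, and the nitromethane libraries overlapped with medium. In DMSO Tnc stood at 8.88, 13.0 and 16.7 CPM, below every nitromethane library. Nitromethane was above DMSO by 1.99 ± 0.32 (log2; adjusted p = 0.00755, edgeR). The difference between the compounds was 4.70 ± 0.33 (log2, SE, n = 3 and 3; adjusted p = 0.000371 by edgeR), or 25.9-fold, and 4.84 without the libraries that stood apart. Mmp2, a gelatinase, followed with 29.8, 41.9 and 59.9 CPM against 2.72, 4.93 and 3.44 CPM, a log2 difference of 3.52 ± 0.34. Thbs1, the matricellular protein thrombospondin 1, stood at 1470, 1907 and 1695 CPM with nitromethane and at 283, 164 and 197 CPM with nitroethane, a log2 difference of 2.91 ± 0.29. Both genes showed the pattern of Tnc against medium, with no overlap between the compounds. In DMSO Mmp2 stood at 7.10, 7.83 and 10.7 CPM, and nitromethane was above DMSO by 2.25 ± 0.32 (log2; adjusted p = 0.00283, edgeR).

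Of 15 matrix and remodelling probes tested, of 25 on the panel, 9 were higher with nitromethane and none with nitroethane, with a median log2 difference of 1.76 against -0.01 over all probes. Without the libraries that stood apart 13 were higher. Against DMSO, 3 of the 15 probes were higher with nitromethane and 10 were lower with nitroethane. Plau, the urokinase protease, had the largest log2 difference of the list at 4.78 ± 0.36; it lies under the mean level set for naming genes and was picked after its values were seen. Its nitroethane libraries were at 0.495 to 0.666 CPM and its nitromethane libraries at 15.4 to 21.0 CPM. Fn1, fibronectin, did not pass, with a log2 difference of 0.52. Nitromethane replicate 3 lay 0.63 log2 units below the others at the median of the list.

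Actin cytoskeleton genes, many of them targets of SRF, formed the list with the highest median, 2.09. Of 18 probes tested, 12 were higher with nitromethane and none with nitroethane, where 6.23% of all probes were higher with nitromethane. Without the libraries that stood apart 16 were higher, where 19.8% of all probes were. Against DMSO, 8 of the 18 probes were higher with nitromethane and 12 were lower with nitroethane. Acta1 stood at 633, 863 and 328 CPM with nitromethane, at 70.9, 34.0 and 48.9 CPM with nitroethane and at 516, 528 and 687 CPM in medium. Its lowest nitromethane library, replicate 3, was still above the highest nitroethane library, and the log2 difference was 3.498 ± 0.46 (adjusted p = 0.00277, edgeR). Tagln, the actin-binding transgelin, showed the same pattern with 669, 777 and 974 CPM against 114, 63.4 and 106 CPM. Cnn1 (calponin), Smtn (smoothelin), Lmcd1 and Myl9 (a myosin light chain) had log2 differences of 3.44, 3.52, 3.03 and 3.13. Smtn is outside the list and Myl9 is outside the naming rule. Pfn1 (profilin), Flna (filamin) and Srf itself did not pass on all 6 libraries, at 0.78, 0.97 and 0.80. Of these, only Flna passed on the 4 libraries, at 1.16. Fblim1 and Fhl2, which carry the CArG box, did not pass on all 6 libraries either, at 2.22 and 1.95, but passed without the libraries that stood apart, at 3.39 and 2.30.

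Nestin (Nes), an intermediate filament protein, stood at 30.9, 44.3 and 40.1 CPM with nitromethane and at 0.990, 1.73 and 2.00 CPM with nitroethane, a log2 difference of 4.54 ± 0.34. Adam12, a membrane metalloprotease, stood at 19.2, 17.7 and 35.4 CPM against 0.990, 1.60 and 2.00 CPM. Celsr1, a cadherin of planar cell polarity, and Bcam, a laminin receptor, differed by 3.46 ± 0.38 and 3.92 ± 0.60. For Bcam and Crct1 the nitroethane level depended on replicate 2, which held 3.99 and 4.39 CPM against 0.248 to 0.990 CPM in replicates 1 and 3. Without the libraries that stood apart their log2 differences were 5.19 and 5.92 in place of 3.92 and 3.77. R3hdml had the largest difference among the 15 genes higher with nitromethane, 4.73 ± 0.33, with 91.5, 108 and 188 CPM against 4.70, 4.39 and 4.77 CPM.

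Calcb, which encodes the beta form of calcitonin gene-related peptide (CGRP), stood at 531, 624 and 875 CPM with nitromethane, at 36.9, 22.9 and 28.0 CPM with nitroethane, at 506, 460 and 515 CPM in medium and at 594, 592 and 611 CPM in DMSO. Both controls lay near the nitromethane libraries and far above the nitroethane libraries. The difference was 4.46 ± 0.32 (log2; adjusted p = 0.000371, edgeR), or 21.9-fold. Of the 4 probes of the CGRP and adrenomedullin family tested, only Calcb passed on all 6 libraries. Adm (adrenomedullin), Adm2 and Ramp1, a receptor subunit, had log2 differences of -0.46, 0.06 and -0.32, with an interval of -0.92 to -0.00 for Adm. On the 4 libraries Adm passed, at -0.51.

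Genes that respond to the ERK kinase cascade included Etv4, an ETS transcription factor. Etv4 stood at 59.1, 57.6 and 66.0 CPM with nitromethane, at 2.97, 3.86 and 3.22 CPM with nitroethane and at 44.8, 51.0 and 63.4 CPM in medium. In DMSO Etv4 stood at 27.0, 28.3 and 31.9 CPM, and nitromethane was above DMSO by 0.97 ± 0.16 (log2; adjusted p = 0.00789, edgeR). The compounds did not overlap and the difference between them was 4.13 ± 0.23, and also 4.13 without the libraries that stood apart. Of 17 probes of the ERK and ETS list tested, 6 were higher with nitromethane and none with nitroethane, at a median of 0.77; 11 were higher without the libraries that stood apart. Dusp4 and Spry2, feedback inhibitors of the cascade, and Etv5 differed by 2.52, 1.79 and 1.76. The immediate early genes Fos and Egr1 did not pass on all 6 libraries, at 0.31 and 0.68, nor did Myc at -0.14. Of these, only Egr1 passed on the 4 libraries, at 0.445.

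Of 14 cell cycle probes tested, 5 were higher with nitromethane, none with nitroethane, at a median of 1.49, and 11 without the libraries that stood apart. Ccnd1, cyclin D1, stood at 118, 133 and 108 CPM against 26.4, 16.8 and 29.96 CPM, with medium at 91.4, 90.2 and 122 CPM. Mki67, a marker of cycling cells, and Mcm3, a subunit of the replicative helicase, differed by 1.55 ± 0.25 and 1.69 ± 0.27. Pcna and Rrm2 did not pass, at 0.14 and 0.19. Rrm2 passed without the libraries that stood apart, at 2.74 (adjusted p = 0.0132, edgeR).

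Inflammatory genes were called in both directions. Of 23 probes tested, 9 were higher with nitromethane and 3 with nitroethane, at a median of 0.89. Without the libraries that stood apart these counts were 14 and 3. Against DMSO, 7 of the 23 probes were lower with nitromethane, and 1 was higher and 14 lower with nitroethane. Against medium, 3 were higher and 10 lower with nitroethane, and none passed with nitromethane. Cxcl3, a neutrophil chemokine outside the list, stood at 58.2, 60.0 and 36.6 CPM with nitromethane and at 4.83, 1.60 and 3.995 CPM with nitroethane. Ccl2, a monocyte chemokine, differed by 2.90 ± 0.41, and Tnfaip3, a feedback inhibitor of NF-κB, by 2.40 ± 0.28. Both probes of the protease inhibitor A2m were higher with nitromethane, by 3.25 and 2.92, and complement C3 by 2.00. Hamp, the iron hormone hepcidin, the acute phase protein Crp and the receptor Cd14 were higher with nitroethane, with log2 differences of -2.38, -2.05 and -1.38. Nfkbia, Icam1 and Socs3 did not pass on all 6 libraries, at 0.21, 0.58 and 0.45. Icam1 and Socs3 passed on the 4 libraries, at 0.52 and 0.68. Tnfaip2, which is also outside the list, stood at 316, 381 and 676 CPM against 43.5, 36.2 and 40.4 CPM.

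**Figure D2:**
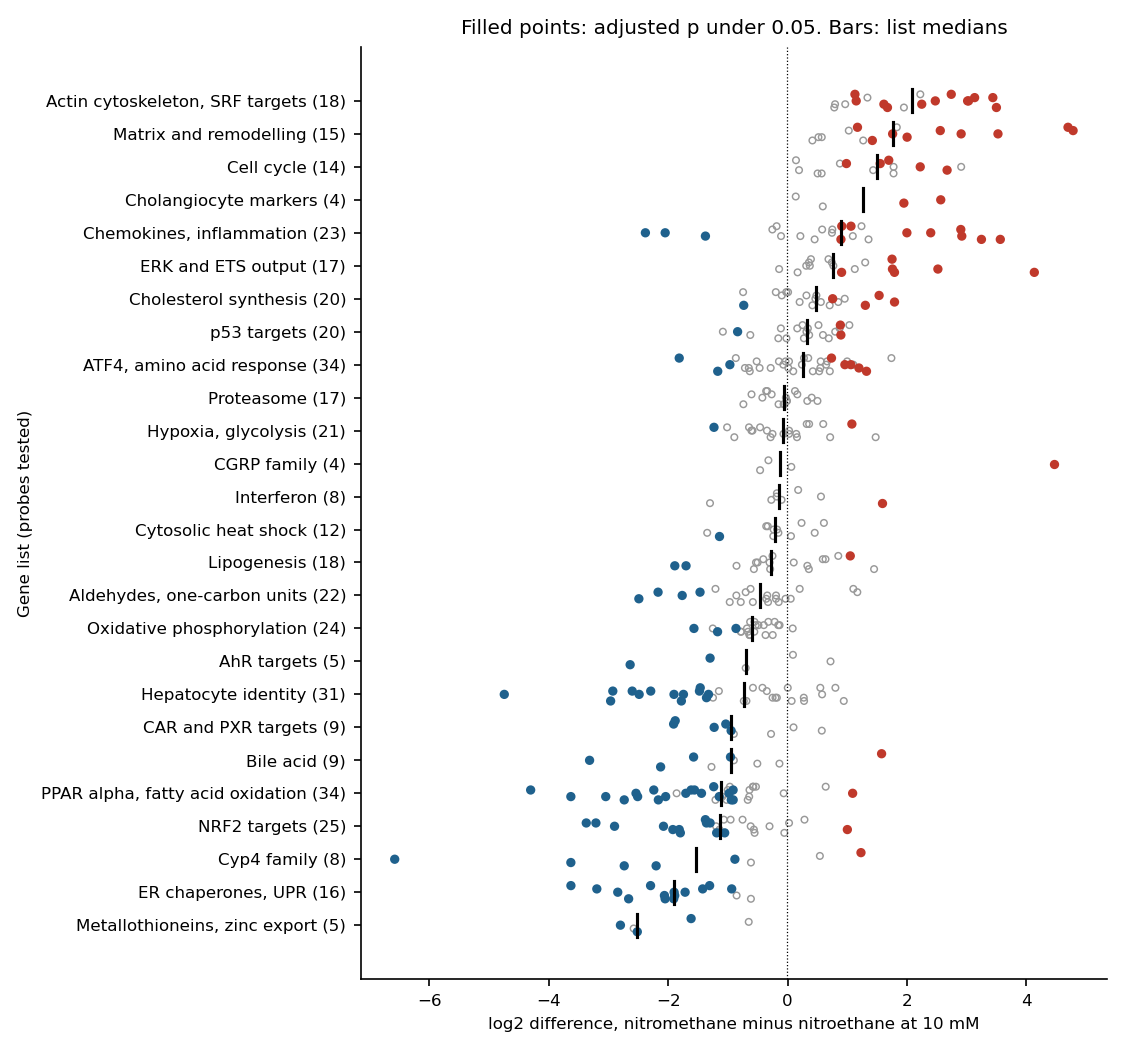
Log2 difference (nitromethane minus nitroethane at 10 mM) of the probes tested in each gene list with at least 4 of them; filled points passed the test (red higher with nitromethane, blue higher with nitroethane), black bars are list medians and the dotted line is the median of all probes. The actin list has the highest median, 2.09, and the metallothionein list the lowest, -2.52.

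ER chaperones were higher with nitroethane. Hspa5 stood at 25.3, 20.7 and 29.4 CPM with nitromethane, at 301, 342 and 259 CPM with nitroethane, at 11.9, 19.0 and 16.4 CPM in medium and at 29.5, 28.7 and 24.9 CPM in DMSO. The nitroethane libraries lay far above all others. The difference was -3.63 ± 0.22 (log2; adjusted p = 0.000321, edgeR), 12.4-fold higher with nitroethane. Hsp90b1 stood at 660, 644 and 530 CPM against 5695, 4922 and 5533 CPM, and Creld2 at 78.2, 74.5 and 110 CPM against 591, 582 and 639 CPM. Hyou1, a chaperone of the same lumen, differed by -2.66 ± 0.22 and Calr, the lectin chaperone calreticulin, by -1.91 ± 0.20.

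Of 16 probes of the ER chaperone and unfolded protein response list, all tested, 14 were higher with nitroethane and none with nitromethane, at a median of -1.90. The members that passed included Sel1l, Syvn1, Derl1 and Edem1 of ER-associated degradation and the co-chaperone Dnajc3 at both of its probes. Canx (calnexin) and Xbp1 did not pass on all 6 libraries, at -0.85 (interval -1.84 to 0.13) and -0.61 (-1.20 to -0.03). Canx stood at 232 and 231 CPM in nitromethane replicates 1 and 2 and at 71.8 CPM in replicate 3. Without the libraries that stood apart, all 16 passed. Selenom, an ER selenoprotein, and Bhlha15, a transcription factor of secretory cells, are outside the list. Bhlha15 stood at 1.89, 2.12 and 4.82 CPM against 58.9, 59.9 and 56.8 CPM, a log2 difference of -4.38 ± 0.37.

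ATF4 drives the amino acid response of stressed cells. Of 34 probes of its targets tested, 5 were higher with nitromethane and 3 with nitroethane, at a median of 0.26; without the libraries that stood apart the counts were 14 and 9. At 3 mM, in a fit of 54 libraries given below, 8 were higher with nitroethane and none with nitromethane. Of the ER chaperone list 13 and none were. In that fit 2.07% of all probes were higher with nitroethane and 2.7% with nitromethane. The difference between the lists was not tested. Ddit3 (CHOP) had a log2 difference of 0.01, with an interval of -0.55 to 0.57, and stood at 200, 257 and 357 CPM against 286, 240 and 244 CPM, with full overlap. Gdf15, a stress hormone, and 1 of the Slc7a1 probes, a cationic amino acid transporter, were higher with nitromethane, by 1.32 ± 0.21 and 1.20 ± 0.18. Slc7a11, the cystine transporter, and Cth, an enzyme of cysteine synthesis, were higher with nitroethane, at -1.82 ± 0.36 and -1.17 ± 0.21. The other Slc7a1 probes did not pass on all 6 libraries, with log2 differences from -0.07 to 1.00, and some of them passed on the 4. Of 12 probes of the cytosolic heat shock list, 1 passed on all 6 libraries, near the share of all probes: Hspd1, a mitochondrial chaperonin that the list also holds, higher with nitroethane at -1.14 ± 0.24. On the 4 libraries 3 were higher with nitromethane and 5 with nitroethane. Hspa8, the constitutive cytosolic chaperone, had an interval of -0.95 to 0.24 on all 6 libraries and passed on the 4, at -0.41 (adjusted p = 0.000224, edgeR).

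Cytochrome P450 4 enzymes, which hydroxylate fatty acids, held the largest difference of the 30 leading genes. Cyp4b1 had 3, 3 and 1 counts in the nitromethane libraries and 183, 200 and 273 counts with nitroethane. All nitromethane libraries were thus at the floor of 3 counts, and the medium and DMSO libraries held 0.114 to 0.928 CPM. On summed counts the level was 97.7 times higher with nitroethane (95% exact interval 47.1 to 244, counting error only; adjusted p = 0.000321, edgeR). Cyp4a2 stood at 10.4, 8.72 and 11.7 CPM against 118, 158 and 96.5 CPM, and at 42.7, 37.6 and 42.2 CPM in DMSO. Its DMSO libraries lay between the compounds and its medium libraries, at 9.05 to 13.9 CPM, near nitromethane. Cyp4a1 and Cyp4f4 differed by -2.74 ± 0.32 and -2.20 ± 0.28. Of 8 probes of the family tested, of 16 on the panel, 5 were higher with nitroethane and 1, a Cyp4f17 probe, with nitromethane. Cyp4a1 and Cyp4a2 are close in sequence, as are Gsta2 and Gsta5 below, and reads of such pairs could be shared.

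Genes controlled by PPARα, the fatty acid sensing receptor, and enzymes of fatty acid oxidation were mostly higher with nitroethane. Pdk4, a kinase that restrains glucose oxidation, stood at 2.88, 2.01 and 0.911 CPM with nitromethane, at 22.7, 43.8 and 47.7 CPM with nitroethane, at 3.71, 3.01 and 3.42 CPM in medium and at 7.46, 6.45 and 6.80 CPM in DMSO. Every nitromethane library was below every control library, and every nitroethane library above them. The difference was -4.30 ± 0.47 (log2; adjusted p = 0.00131, edgeR), 19.8-fold higher with nitroethane, and -3.94 without the libraries that stood apart. Of 34 probes of the list tested, 19 were higher with nitroethane and 1, the mitochondrial carrier Ucp2, with nitromethane, at a median of -1.12. Without the libraries that stood apart 29 were higher with nitroethane.

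Among these, Slc27a2, a fatty acid transporter, differed by -3.05 ± 0.40 and Cpt1a, the gate of mitochondrial entry, by -1.14 ± 0.26. The acyl-CoA dehydrogenases Acadm, Acadvl and Acadl did not pass on all 6 libraries, at -0.64, -0.58 and -0.07. Nor did Fabp1 and Plin2, at -1.003 and -1.02. On the 4 libraries Acadm, Acadvl, Fabp1 and Plin2 passed, at -0.69, -0.81, -0.87 and -0.86, and Acadl did not. Against DMSO, 15 of the 34 probes were lower with nitromethane, and 11 were higher and 2 lower with nitroethane. Against medium, 22 were higher and 2 lower with nitroethane, and none passed with nitromethane.

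NRF2 is the sensor of electrophiles and oxidants. Of 25 probes of its targets tested, 12 were higher with nitroethane and 1, Mafg, a small partner protein of NRF2, was higher with nitromethane, at a median of -1.14. Without the libraries that stood apart 19 were higher with nitroethane. Gsta5 and Gsta2, glutathione transferases, differed by -3.21 ± 0.29 and -2.90 ± 0.23. Akr7a3, an aldo-keto reductase, stood at 56.3, 46.1 and 7.81 CPM with nitromethane and at 396, 262 and 441 CPM with nitroethane. Its log2 difference of -3.37 ± 0.65 became -3.13 without the libraries that stood apart. Hmox1, haem oxygenase, differed by -1.05 ± 0.20. Gclm, Gsr and Tkt did not pass on all 6 libraries, at -1.07, -0.05 and 0.02. Gclm and Tkt passed on the 4 libraries, at -0.80 and -0.26.

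Other receptor programmes were sampled by short lists. Of 5 AhR target probes tested, Cyp1a1 and Nqo1 were higher with nitroethane, by -2.64 ± 0.53 and -1.30 ± 0.24. Cyp1a2 and Tiparp did not pass on all 6 libraries, at 0.72 and 0.09. Cyp1a2 passed on the 4 libraries, higher with nitromethane at 1.19. Cyp1a1 stood at 18.4, 14.4 and 3.51 CPM against 65.5, 64.7 and 89.9 CPM. Of 9 CAR and PXR target probes, 5 were higher with nitroethane, among them Cyp2b3 at -1.88 ± 0.30 and the P450 reductase Por at -1.04 ± 0.18. Ephx1 and Cyp3a9 did not pass on all 6 libraries, at 0.10 and 0.57, and Cyp3a9 passed on the 4, at 0.84.

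Enzymes that handle aldehydes and one-carbon units bear on the products of nitroalkane oxidation. Of 22 probes tested, 4 were higher with nitroethane, none with nitromethane, and 18 did not pass, at a median of -0.47; without the libraries that stood apart the counts were 11 and 2. Mat1a, which makes the methyl donor S-adenosylmethionine, stood at 39.0, 32.8 and 43.1 CPM against 199.6, 187 and 232 CPM. Cat, catalase, stood at 164, 159 and 269 CPM against 642, 687 and 606 CPM, and Aldh1a1, a cytosolic aldehyde dehydrogenase, at 385, 422 and 544 CPM against 1361, 1047 and 1153 CPM. Cyp2e1, which oxidises small molecules, differed by -2.17 ± 0.42 at low levels of 1.34 to 12.1 CPM.

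Besides Aldh1a1, which can also oxidise acetaldehyde, enzymes of formaldehyde and acetaldehyde clearance on the list did not pass on all 6 libraries. Both probes of Adh5, the glutathione-dependent formaldehyde dehydrogenase, had intervals that included 0, at -0.67 to 0.38 and -0.91 to 0.19. The second of these probes passed without the libraries that stood apart, at -0.36 (adjusted p = 0.0226, edgeR). Aldh2, the main mitochondrial acetaldehyde dehydrogenase, stood at 212, 199 and 82.4 CPM against 181, 158 and 205 CPM, with an interval of -1.02 to 0.63. Esd, which completes formate production, had a log2 difference of -0.97 and passed without the libraries that stood apart, at -0.89.

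The list of metallothioneins, small zinc-binding proteins, and zinc exporters had the lowest median, -2.52, and 3 of its 5 probes tested were higher with nitroethane. These were Mt2A, 1 of the Mt1 probes and Slc30a10, a membrane transporter, at -1.62 ± 0.37. Mt2A stood at 32.7, 24.5 and 14.2 CPM against 158, 166 and 159.8 CPM. The Mt1 probe that passed stood at 326, 295 and 98.7 CPM with nitromethane and at 1167, 1176 and 1645 CPM with nitroethane. The other Mt1 probe did not pass on all 6 libraries, at -2.58 ± 0.72, with nitromethane replicate 3 at 3.51 CPM against 42.3 and 35.8 CPM. All 5 probes passed without the libraries that stood apart. Against medium all 5 were higher with nitroethane, and none passed with nitromethane. Against DMSO 1 was higher with nitroethane and 2 were lower with nitromethane.

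Of 31 hepatocyte identity probes tested, 13 were higher with nitroethane, none with nitromethane, at a median of -0.73; without the libraries that stood apart the counts were 19 and 4. The gluconeogenic enzyme Fbp1 stood at 50.8, 54.9 and 51.3 CPM against 390, 368 and 391 CPM, and Tdo2, which opens the tryptophan ring, at 102, 95.3 and 38.8 CPM against 542, 397 and 446 CPM. Cps1, the entry enzyme of the urea cycle, stood at 11.6, 11.3 and 2.47 CPM against 92.1, 75.8 and 27.4 CPM, and was the only one of 92 named probes that passed on all 6 libraries and not on the 4 (adjusted p = 0.143, edgeR). Its log2 difference was -2.96 on 6 libraries and -2.48 on 4. Among genes of secreted proteins, Rbp4 (retinol carrier), Azgp1 and F9 (a clotting factor) passed, at -1.78 ± 0.37, -2.29 ± 0.23 and -1.32 ± 0.25. Alb, Ttr and Tf did not, with intervals of -0.23 to 0.79, -0.45 to 0.58 and 0.28 to 1.32. Of the transcription factors, Cebpa passed at -1.46 ± 0.22 and Hnf4a did not, at -0.42. On the 4 libraries Tf passed, at 0.57, and Hnf4a passed, at -0.31.

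Against DMSO, 13 of the 31 hepatocyte probes were lower with nitromethane, and 6 were higher and 11 lower with nitroethane. Against medium, 15 were higher and 2 lower with nitroethane, and none passed with nitromethane. The side on which most nitroethane calls lay thus differed between the controls. Hsd17b13, a lipid droplet protein of hepatocytes outside the list, stood at 41.5, 39.2 and 37.7 CPM against 433, 362 and 374 CPM. Cdo1, which oxidises cysteine, stood at 43.0, 47.1 and 31.2 CPM against 354, 342 and 411 CPM. Pfkfb1, which sets the level of a glycolysis regulator in liver, Car5a, a mitochondrial carbonic anhydrase, and Adhfe1, which oxidises gamma-hydroxybutyrate, differed by -3.27, -3.28 and -3.42. LOC103694875, for which no role was given in the sources used here, stood at 3.77, 2.46 and 1.56 CPM against 241, 167 and 235 CPM, a log2 difference of -6.41 ± 0.41. In medium LOC103694875 stood at 1.62, 2.51 and 1.71 CPM.

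Bile duct markers were followed because hepatocytes in culture can gain them. Of 4 cholangiocyte probes tested, of 8 on the panel, Sox9 and Krt19 were higher with nitromethane, by 2.57 ± 0.32 and 1.95 ± 0.35. Epcam and Spp1 did not pass on all 6 libraries, at 0.59 and 0.14, and Epcam passed on the 4, at 0.71. The summed level of all 8 was 829 to 1222 CPM with nitromethane and 226 to 288 CPM with nitroethane. It was 628 to 737 CPM in medium and 546 to 624 CPM in DMSO, and Krt7 was at most 3 counts in all of these libraries. The part of these cells in the cytoskeletal and matrix differences was not tested.

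Sterol and lipid synthesis genes gave mixed results. Of 20 cholesterol synthesis probes, 4 were higher with nitromethane, Msmo1, Idi1, Cyp51 and Srebf2, and 1 was higher with nitroethane. Cyp51 stood at 158, 169 and 172 CPM against 74.2, 59.9 and 59.6 CPM, and at 268, 270.2 and 245 CPM in medium, above both compounds. Of 18 lipogenesis probes, Fasn (fatty acid synthase) was higher with nitromethane, by 1.05 ± 0.20, and Srebf1 and Lpin1 were higher with nitroethane, at -1.70 ± 0.21 and -1.89 ± 0.33. Of 9 bile acid probes, 4 were higher with nitroethane, among them the export pump Abcb11 at -2.13 ± 0.33 and the uptake transporter Slc10a1 at -3.32 ± 0.45, and the receptor Fgfr4 was higher with nitromethane, by 1.57 ± 0.28.

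On all 6 libraries the shares called in the next 5 lists, both directions together, were near or below the 11.7% of all probes. By direction, 6.23% of all probes were higher with nitromethane and 5.47% with nitroethane. The oxidative phosphorylation list stood above the latter, with 3 of 24 probes, and this was not tested. Counts this small are no result about these lists. On the 4 libraries 19.8% of all probes were higher with nitromethane and 20.1% with nitroethane. The oxidative phosphorylation list stood farthest above its share, followed by the p53 list, and this was not tested. Of 17 proteasome probes none passed on all 6 libraries, at a median of -0.05, and 4 passed on the 4 libraries, 1 higher with nitromethane and 3 with nitroethane. Of 20 p53 target probes, Zmat3 and Phlda3 were higher with nitromethane, by 0.88 and 0.89, and Plk2 with nitroethane; without the libraries that stood apart the counts were 8 and 2. Cdkn1a and Mdm2 had intervals of -0.34 to 1.38 and -0.16 to 0.66. Of 21 hypoxia and glycolysis probes 1 passed in each direction, Hk1 and Bnip3, and on the 4 libraries 4 were higher with nitromethane and 5 with nitroethane. Of 8 interferon probes only Gbp2 passed, higher with nitromethane at 1.57 ± 0.22, and on the 4 libraries the counts were 2 and 1. Of 24 oxidative phosphorylation probes, 3 were higher with nitroethane and 16 without the libraries that stood apart, at a median of -0.59. Nitromethane replicate 3 lay 0.62 log2 units below its group at the median of that list and 0.73 below at the hypoxia and glycolysis list.

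The same contrast was run in separate libraries at the 7 lower concentrations. From 0.003 to 3 mM, edgeR called 0, 0, 1 (0.00878%, higher with nitroethane), 0, 0, 0 and 2 probes (0.0179%, both higher with nitroethane), and 480, 346, 941, 1264, 947, 201 and 946 probes had an unadjusted p under 0.05. The compounds lay in the same columns at every concentration, so compound and column cannot be told apart there either. At 3 mM the called genes were LOC103694875, at -4.32, and Hyou1, at -1.68. Without nitromethane replicate 1 of 3 mM, 180 of 11349 probes (1.59%) passed at 3 mM, 82 higher with nitromethane (0.723%) and 98 with nitroethane (0.864%). In a fit of all 54 nitromethane, nitroethane, medium and DMSO libraries of the set, 605 of 12685 probes (4.77%) passed at 3 mM and 1 at 1 mM (0.00788%). DESeq2 called 99 probes at 3 mM, 2 at 1 mM and 46 at 0.1 mM.

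**Figure D3:**
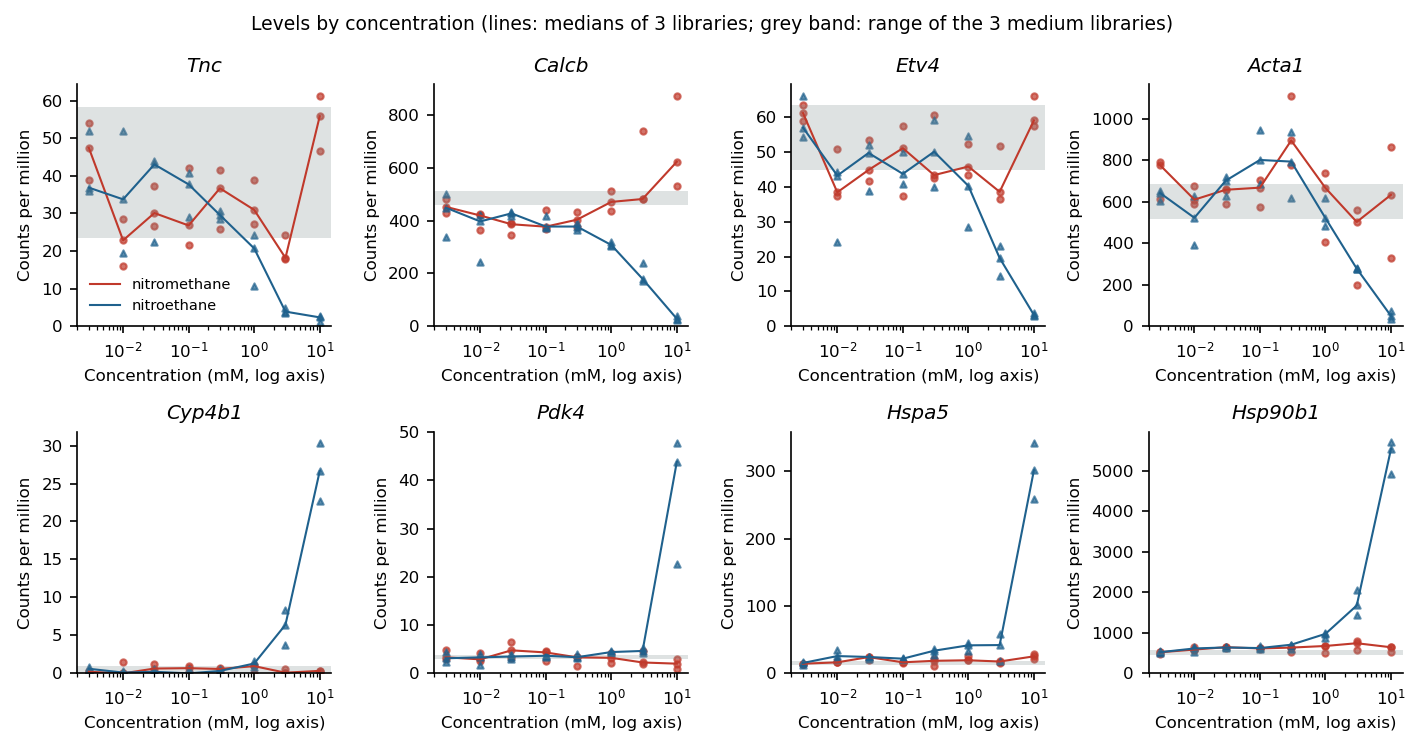
Levels (CPM, linear axes from 0) of 4 genes higher with nitromethane (top) and 4 higher with nitroethane (bottom) at 8 concentrations (mM, log axis); points are libraries, lines join the medians of 3 libraries and the grey band is the range of the 3 medium libraries. At 3 mM the libraries of the compounds do not overlap for Tnc, Calcb and Cyp4b1; for Pdk4 they overlap there, and at 10 mM nitroethane reaches 22.7 to 47.7 CPM.

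The leading genes parted along the concentrations. Tnc stood at 17.8, 18.2 and 24.1 CPM with 3 mM nitromethane and at 3.45, 3.86 and 4.77 CPM with 3 mM nitroethane, a log2 difference of 2.25 that did not pass (adjusted p = 0.121, edgeR). Without nitromethane replicate 1, a choice made after seeing the data, it was 2.35 (adjusted p = 0.00327, edgeR). Calcb with nitroethane stood at 303, 308 and 318 CPM at 1 mM, 180, 171 and 238 CPM at 3 mM and 36.9, 22.9 and 28.0 CPM at 10 mM. Its nitromethane libraries held 438 to 515 CPM at 1 mM and 482 to 742 CPM at 3 mM, above nitroethane at both. Cyp4b1 stood at 6.41, 8.34 and 3.79 CPM with 3 mM nitroethane and at no more than 0.574 CPM with 3 mM nitromethane.

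Pdk4 ran differently, with 5.17, 4.17 and 4.65 CPM for nitroethane and 2.26, 1.89 and 4.71 CPM for nitromethane at 3 mM, where the groups overlapped. Hspa5 stood at 58.3, 42.0 and 18.2 CPM with 3 mM nitroethane and at 17.9, 17.6 and 16.1 CPM with 3 mM nitromethane. Nitroethane replicate 3 was just above the nitromethane libraries there. At 1 mM the levels of Hspa5 were 32.9, 44.9 and 41.6 CPM with nitroethane and 19.5, 25.7 and 19.4 CPM with nitromethane, without overlap, at a log2 difference of -0.89 that did not pass.

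**Figure D4:**
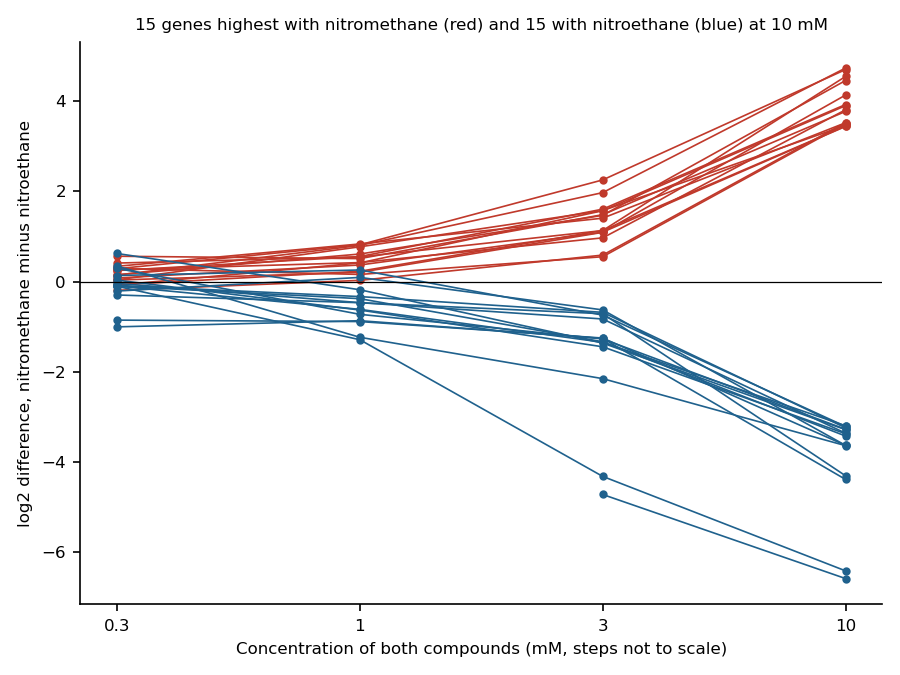
Log2 difference (nitromethane minus nitroethane, vertical axis) at 0.3, 1, 3 and 10 mM (horizontal axis, steps not to scale), each concentration fitted on its own 6 libraries, for the 30 leading genes; red lines were higher with nitromethane at 10 mM and blue lines higher with nitroethane. All 30 lie on the side of their 10 mM value at 3 mM, where Cyp4b1 has its first value.

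All 30 leading genes had the sign of their 10 mM difference at 3 mM, where 70.7% of all probes tested and 92.1% of the probes called at 10 mM did. Without nitromethane replicate 1 of 3 mM the shares were again 30 of 30, with 64.7% of all probes, and 18 of the 30 passed. At 1 mM 27 of 29 kept the sign, against 67.7% of all probes, and 28 of 30 against 50.5% without nitromethane replicate 1 of 1 mM. At 0.3 mM 21 of 29 did, against 51.4%. The median log2 difference of the 15 genes higher with nitromethane was 0.15, 0.51 and 1.40 at 0.3, 1 and 3 mM, and that of the 15 higher with nitroethane was -0.09, -0.54 and -1.27. None of the 30 passed at 1 or 0.3 mM.

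1-nitropropane, with a propyl chain, was run in the other library set, and its values are given beside those above without a test. Its replicate 3 stood apart from replicates 1 and 2 at 10 mM, for Calcb, Cyp4b1, Tnc and Hspa5 at 3 mM, and for Hspa5 at 1 mM. Calcb stood at 463, 401 and 83.6 CPM and Cyp4b1 at 0.474, 1.09 and 10.5 CPM at 3 mM. Tnc stood at 38.0, 26.2 and 6.85 CPM and Hspa5 at 13.8, 10.6 and 28.2 CPM there. At 1 mM Hspa5 stood at 4.66, 6.14 and 36.8 CPM. Whether replicate 3 matches its labels was not tested. At 10 mM Calcb stood at 522, 430.3 and 8.91 CPM, Tnc at 60.5, 42.2 and 0.820 CPM, Cyp4b1 at 0.135, 0.543 and 26.3 CPM and Pdk4 at 0.810, 1.63 and 53.6 CPM. Hspa5 stood at 10.7, 10.7 and 177 CPM. Replicates 1 and 2 lay in the range of the nitromethane libraries or near it, except that their Hspa5 was below nitromethane. Replicate 3 lay on the side of the nitroethane libraries for each of these genes. Its Cyp4b1 was in their range, Calcb, Tnc and Hspa5 were below it and Pdk4 was above it. Against the medium of its set, edgeR called 0 of 11631 probes, with 2425 at an unadjusted p under 0.05 and 462 by DESeq2.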

How the data were processed

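The deposited table holds whole-number counts per probe for 105 libraries, which the authors made by TempO-Seq; the submitters' processing notes name FastQC, Bowtie, R 3.5.3 and DESeq2 1.28.1, and the genome build is not given in the sources used here. Members and gene lists were chosen with earlier results of these data known. Counts of 6 libraries were filtered with filterByExpr (minimum count 10, total 15), scaled by TMM and tested with edgeR 4.0.16 (limma 3.58.1, R 4.3.3), robust quasi-likelihood, Benjamini-Hochberg over all probes, called at adjusted p under 0.05. Control comparisons used 12 libraries in 1 fit, and 1-nitropropane 9. CPM are counts scaled to the library total, with no correction for probe efficiency, so levels are not compared between genes; 3 counts equal 0.333 to 0.399 CPM. DESeq2 1.42.0 was the alternative test. In data simulated for this comparison on 11351 probes, 98 of 100 probes changed 4-fold and 28 of 100 changed 2-fold were recovered, with 6 false calls. The simulated libraries of a group were alike, and only probes at 10 CPM or more were changed. It held no library that stood apart, so these rates need not hold for the real libraries. Named genes passed the test, had a mean of at least 10 CPM and groups that did not overlap; the 15 largest in each direction were taken from 1137 such probes, with Tnc, Calcb, Cyp4b1 and Pdk4 and up to 4 members of each of 31 lists at 10 CPM or more. Other members are named to show what did not pass or as stated. Replicate numbers were not used to pair the samples in the main fit. Deviations of same-numbered libraries from their group means correlated at 0.17, -0.29 and -0.34. The libraries that stood apart weigh on these values, so they cannot show whether samples were paired. Of 114 named symbols, 113 were in the RefSeq gene table. Some list members are not reported here.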

Additional observations from a re-analysis of the deposited data

Results flagged for a closer look

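Among the 10702 probes left out of the comparison for low counts, the medium and DMSO libraries of the set had over 3 counts at 886 to 1080. The 10 mM libraries exceeded that number at 9290 probes in nitroethane replicate 2, and at 1085, 1134 and 1143 probes in nitromethane replicates 1, 2 and 3. These probes were looked at because they enter no comparison and their signal is above that of the control libraries. Nitromethane exceeded the controls by little, nitroethane replicate 2 by far. Groups of 3 are too small for a test of single outlying libraries.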

How the results depend on the processing

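Of 1352 probes called at 10 mM, none with a value changed direction under any alternative run; 1230 had a value with a mean of at least 50 counts, 1349 with DESeq2 and all 1352 otherwise. The count was 3941 in the 54-library fit (2134 higher with nitromethane, 1807 with nitroethane), 575 with a replicate block (308 and 267), 4577 without nitromethane replicate 3 and nitroethane replicate 2 (2273 and 2304), and 436 to 2711 leaving out 1 library (218 to 1398 and 192 to 1313). The highest of these was without nitromethane replicate 3, and the lowest, 440 and 436, without nitroethane replicate 1 or 3. Leaving out nitroethane replicate 2, nitromethane replicate 1 or nitromethane replicate 2 gave 832, 863 and 659. DESeq2, RLE factors, no count filter and a mean of at least 50 counts gave 1752, 1353, 1470 and 1358. List members called were 154, and 259, 96 and 293 under the first 3 of these changes, or 77 to 217 leaving out 1 library. Named probes called were 92, and 62 to 92 of them held leaving out 1 library, 73 with the replicate block, 85 without a count filter and 91 or 92 otherwise.

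At lower concentrations the counts depended on single libraries and on the tool. Leaving out 1 library gave 0 to 2 at 0.003 mM, 0 to 7 at 0.01 mM (7 without nitroethane replicate 3), 0 to 260 at 0.03 mM (260 without nitromethane replicate 3), 0 to 88 at 0.1 mM (88 and 53 without nitromethane replicate 3 or 1), 0 to 1 at 0.3 mM and 0 to 180 at 3 mM. Without a count filter the counts were 1 at 0.003 mM, 45 at 0.03 mM, 138 at 0.1 mM and 14 at 3 mM. DESeq2 called 6 at 0.03 mM, 46 at 0.1 mM, 2 at 1 mM and 99 at 3 mM. The 54-library fit called 0 at 0.03 mM, 1 at 1 mM and 605 at 3 mM, and the replicate block 3, 45 and 0 at 0.03, 0.1 and 3 mM.

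Nitromethane against medium gave 66 with DESeq2, 299 without a count filter, 219 without both libraries and 0 to 36 leaving out 1, the highest without nitromethane replicate 3. Against DMSO it gave 645, 806, 1331 and 48 to 548, with 48, 66 and 128 without DMSO replicate 1, 2 or 3, 201 and 205 without medium replicate 1 or 2, and 159 without nitromethane replicate 2. Nitroethane against medium gave 5534 without both libraries and 1948 (without medium replicate 3) to 4988 (without nitromethane replicate 3), and against DMSO 5059 and 1257 to 4362, with 1467 and 1257 without DMSO replicate 2 or 3. Alternatives without nitromethane replicate 1 at 1 and 3 mM, and without both libraries for the control comparisons, were chosen after seeing the data. The cause of these changes was not tested. Low levels in nitroethane replicate 2, up to about 3.60 CPM at 90% of the probes otherwise at 0, limit genes that are near 0 with nitroethane.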
